A study of Mus musculus with 20 samples.

Results

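The 9 genes described here encode proteins that remove R-loops or that start the ATR checkpoint, and they were followed in red cell progenitors that carry a mutant splicing factor. They were taken from the deposited expression table as the rows whose Ensembl identifiers map to a fixed list of symbols: Atr, Atrip, Topbp1, Chek1, Rnaseh1, Rnaseh2a, Rnaseh2b, Rnaseh2c and Aqr. All 9 were found among the 37748 entries of the table, and all 9 were among the 10890 entries kept by a filter on low values, which asked for 5 or more libraries (of 20) with a value of 1 or more.

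The libraries came from CFU-E, the committed erythroid progenitors of bone marrow, sorted from mice of 2 genotypes under 2 treatments, with 5 libraries in each group. The mutant mice were Mx1-Cre Srsf2P95H/+, heterozygous for a missense change in the splicing factor Srsf2, and are called P95H here; the control mice carried Mx1-Cre without the mutant allele, so every animal carried the Cre transgene. Mx1-Cre places the recombinase under an interferon-inducible promoter that is active in blood stem cells and also in other tissues; the sources used here do not say how or when it was induced, or how old the mice were. P95H mice given PHZ, P95H mice given PBS, Mx1-Cre mice given PHZ and Mx1-Cre mice given PBS formed the 4 groups. PHZ is phenylhydrazine, which destroys circulating red cells and so drives the marrow to make more, and it was injected subcutaneously (30 mg/kg) on day 0 and again on day 1, with PBS as the vehicle and the sort on day 4. Library names end in a separate code each, taken here as the animal, so p-values are read as reflecting the variation from mouse to mouse, libraries included.

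An R-loop is a stretch of nascent RNA paired with its DNA template while the other DNA strand is left single. RNase H1 (Rnaseh1) and the 3-subunit RNase H2 cut the RNA of such hybrids; in RNase H2, Rnaseh2a encodes the catalytic subunit, and Rnaseh2b and Rnaseh2c encode the accessory subunits. Aqr encodes Aquarius, a helicase of the spliceosome that binds introns and whose loss raises R-loop levels in human cells. Exposed single-stranded DNA recruits the kinase ATR through its partner ATRIP, TOPBP1 activates ATR, and ATR phosphorylates the kinase CHK1, the product of Chek1, which slows the cell cycle. Mutations of splicing factors, those of human SRSF2 among them, are known for R-loop accumulation and for an active ATR response.

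Values are on a TPM-like scale, that is, TPM multiplied by 1 factor per library. Read counts per gene are not part of the table, which leaves the depth of single values unknown; per the labels every library had 100 M reads or more. No 2 libraries held identical values, and the correlation between libraries of 1 group ranged from 0.988 to 0.996 over the 10890 genes. Fold changes are differences of log2(value + 1), tested with limma on all 10890 genes, and a gene is said to rise or fall where its Benjamini-Hochberg adjusted p, taken over all those genes, was under 0.05. Averaged over both treatments, the Srsf2 log2 fold change of P95H against Mx1-Cre was -0.18 (limma adjusted p = 0.00530); gene-level values do not show the P95H base change itself. The 10 CFU-E markers were present in every group, with summed signals between 2093 and 3207. None of them passed between genotypes (beside 1.48% of all genes under PBS, 5.47% after PHZ and 10.5% by the average). Most leaned lower in P95H: 9 of 10 under PBS (median log2 fold change -0.10, beside -0.03 over all genes). After PHZ 7 of 10 did (median -0.09, beside -0.05), with Klf1 nearest to passing (-0.22, limma adjusted p = 0.0568). The part of the CFU-E markers in the genotype results was not tested. The 18 granulocyte and monocyte markers, which the sorting gate is meant to remove, varied widely between libraries. Their summed signal was 161 to 604 in P95H libraries after PHZ, 571 to 2499 in P95H libraries under PBS, 153 to 1089 in Mx1-Cre libraries after PHZ and 460 to 967 in Mx1-Cre libraries under PBS. It was highest in P95H PBS replicates 4 and 5, at 1850 and 2499. Lymphoid markers summed to at most 9.45, macrophage markers to at most 4.60 and megakaryocyte markers to at most 17.7, with no marker at 0 in all 20 libraries. Of the 3 megakaryocyte markers tested, only Gp9 passed between genotypes. Gp9 was higher in P95H by the average (log2 fold change 0.36, limma adjusted p = 0.0316) and after PHZ (0.54, adjusted p = 0.0399). By the average 2 of the 3 were positive and 1 negative (median 0.08), and after PHZ all 3 were positive (median 0.10). Under PBS 2 were positive and 1 negative, with Itga2b at -0.18, which did not pass. The part of Gp9 in the results was not tested. In bulk samples, a change in the share of a cell type and a change in RNA per cell cannot be told apart.

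The genes lie on 6 mouse chromosomes. Atr (chromosome 9, 95857597-95951781, plus strand), Topbp1 (chromosome 9, 103305215-103350428, plus strand), Atrip (chromosome 9, 109057933-109074124, minus strand) and Chek1 (chromosome 9, 36708482-36727065, minus strand) share chromosome 9 in GRCm38. Rnaseh1 lies at 28649602-28659589 of chromosome 12, plus strand, Rnaseh2a at 84956610-84969767 of chromosome 8, minus strand, Rnaseh2b at 62292589-62372992 of chromosome 14, plus strand, Rnaseh2c at 5601873-5607019 of chromosome 19, plus strand, and Aqr at 114101170-114187024 of chromosome 2, minus strand. A RefSeq promoter window of 300 bases, from 250 before to 50 after the start, was found for 7 of the 9, all but Rnaseh1 and Rnaseh2b. The windows of the 4 genes that passed a test between groups are given 5′ to 3′ on the strand of the gene (RefSeq, GRCm38.p6), with capitals at the motifs found. That of Topbp1 is given too, as the only window with an E2F string of those searched below. The RefSeq starts of Rnaseh2a, Aqr and Topbp1 lie inside the GENCODE spans above.
Rnaseh2a, chr8:84966027-84966326, minus strand: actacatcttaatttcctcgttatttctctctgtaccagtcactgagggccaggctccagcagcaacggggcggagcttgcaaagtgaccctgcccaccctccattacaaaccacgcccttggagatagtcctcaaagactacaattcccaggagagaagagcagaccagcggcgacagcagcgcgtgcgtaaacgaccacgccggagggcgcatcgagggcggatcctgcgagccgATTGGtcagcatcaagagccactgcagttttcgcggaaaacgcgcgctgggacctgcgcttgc
Rnaseh2c, chr19:5601623-5601922, plus strand: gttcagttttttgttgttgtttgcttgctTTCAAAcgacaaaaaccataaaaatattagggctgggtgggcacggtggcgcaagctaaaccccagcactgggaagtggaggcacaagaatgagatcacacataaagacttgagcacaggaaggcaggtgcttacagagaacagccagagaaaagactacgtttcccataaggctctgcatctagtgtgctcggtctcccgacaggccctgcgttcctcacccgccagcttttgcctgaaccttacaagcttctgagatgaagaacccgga
Aqr, chr2:114175290-114175589, minus strand: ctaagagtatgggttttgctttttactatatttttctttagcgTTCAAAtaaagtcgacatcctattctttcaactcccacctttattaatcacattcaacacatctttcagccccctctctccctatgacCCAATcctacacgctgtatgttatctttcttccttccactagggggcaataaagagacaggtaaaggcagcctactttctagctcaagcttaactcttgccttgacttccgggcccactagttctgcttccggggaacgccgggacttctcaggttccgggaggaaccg
Atr, chr9:95857347-95857646, plus strand: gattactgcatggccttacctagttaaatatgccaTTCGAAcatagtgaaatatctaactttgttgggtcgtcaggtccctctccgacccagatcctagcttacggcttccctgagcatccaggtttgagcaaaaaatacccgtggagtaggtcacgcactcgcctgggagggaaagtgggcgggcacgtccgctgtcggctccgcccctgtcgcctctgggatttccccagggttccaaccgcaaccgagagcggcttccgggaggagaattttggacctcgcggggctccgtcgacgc
Topbp1, chr9:103305077-103305376, plus strand: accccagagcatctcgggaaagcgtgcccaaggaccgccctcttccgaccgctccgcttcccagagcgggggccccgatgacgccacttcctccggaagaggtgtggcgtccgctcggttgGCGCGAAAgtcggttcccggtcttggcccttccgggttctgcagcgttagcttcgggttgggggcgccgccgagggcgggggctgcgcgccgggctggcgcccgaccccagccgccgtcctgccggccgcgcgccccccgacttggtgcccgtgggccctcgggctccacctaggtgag

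3 motifs of cell-cycle promoters were searched as exact letters on both strands. They were the E2F site (TTTCGCGC or TTTGGCGC), the NF-Y box (CCAAT) and the CHR element (TTTGAA or TTCGAA), and no match of one motif overlapped a match of another in these windows. The E2F site occurred in Topbp1, 129 to 122 bases before the start, and in 0.813% of the 32851 windows of the RefSeq table. CCAAT occurred in Rnaseh2a, beginning 13 bases before the start, in Aqr, beginning 119 before it, and in Atrip, beginning 10 before it, against 37.4% of all windows. A CHR letter string occurred in Atr at 215, in Rnaseh2c at 221 and in Aqr at 207 bases before the start, against 19.2% of all windows. The Topbp1 window held 73.7% G and C and 38 CpG, the highest of the 7, and that of Aqr held 45.7% and 9, against medians of 52.7% and 7 over all windows. These matches describe letters only, and no motif of the 3 was found in all 4 of the genes that passed a test between groups. Other forms of these sites were not searched, so a window without a match may still hold one.

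All 9 genes were expressed in CFU-E of all 4 groups. On the per-length TPM-like scale, averaged over the 20 libraries, Rnaseh2c stood highest at 164, followed by Rnaseh2a at 128, Topbp1 at 119, Rnaseh2b at 115, Aqr at 73.5, Chek1 at 56.5, Atr at 30.2, Rnaseh1 at 24.4 and Atrip at 14.8. The median of the 10890 genes was 22.8, so that Rnaseh2c exceeded 90.8% of them and Atrip 40.2%. Over the 20 libraries the ranges of neighbours in this order overlapped for Rnaseh2c, Rnaseh2a, Topbp1 and Rnaseh2b, for Aqr and Chek1, and for Atr and Rnaseh1. They did not overlap between Rnaseh2b and Aqr, between Chek1 and Atr, or between Rnaseh1 and Atrip. In Mx1-Cre mice under PBS, Rnaseh2a, Topbp1 and Rnaseh2b averaged 125 ± 10.4, 126 ± 5.43 and 117 ± 6.55 (SD, n = 5 each). The 3 RNase H2 subunits were thus among the more abundant of the 9 RNAs, and Atrip, the partner of ATR, was the least abundant.

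**Figure D1:**
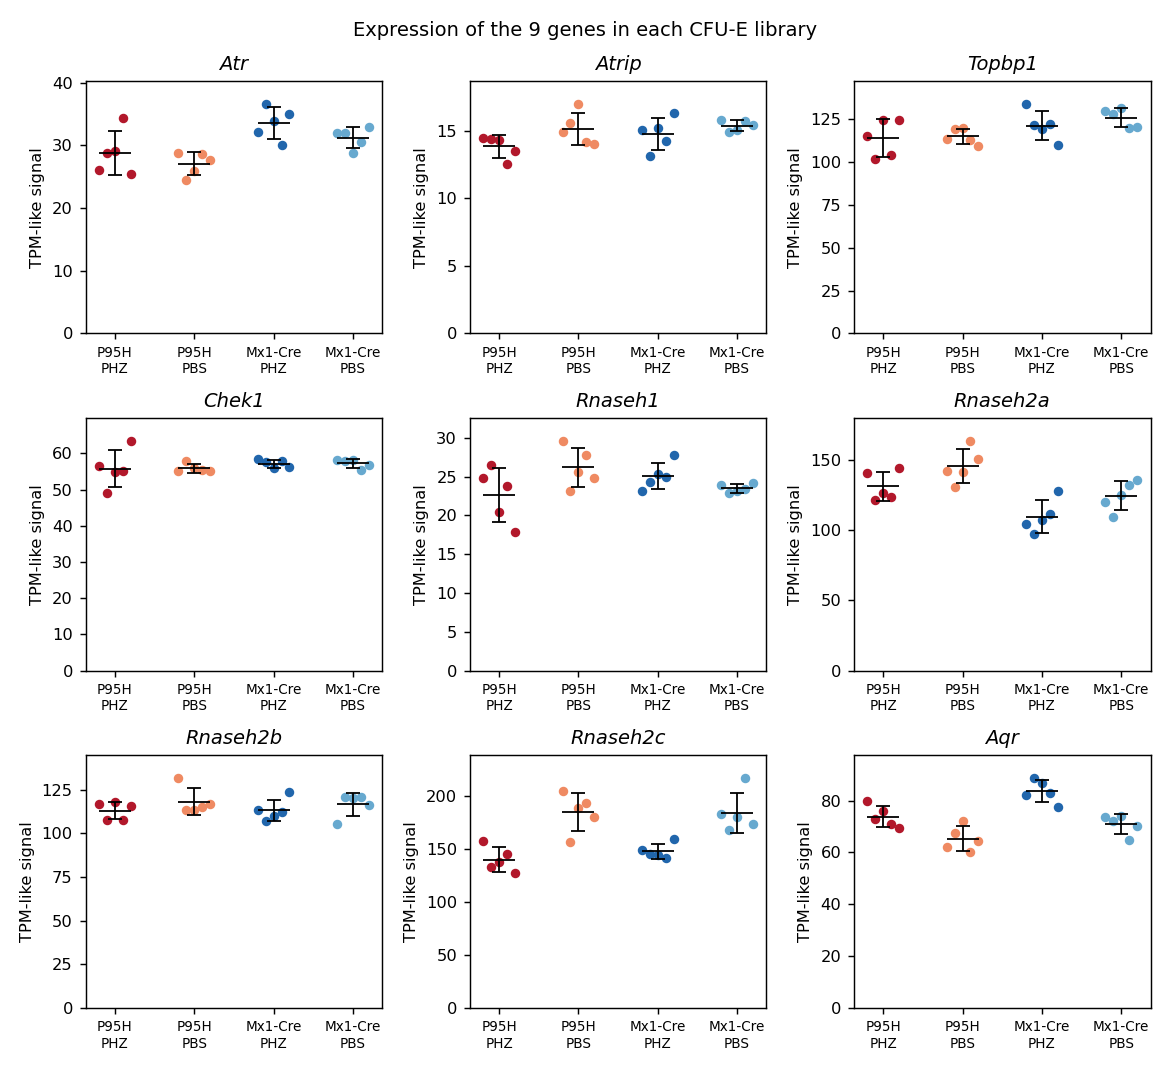
Signal of each gene in each CFU-E library, on the TPM-like scale, with 1 point per library and the mean ± SD of 5 libraries in black. Atr and Topbp1 lie lower in all 5 P95H than in all 5 Mx1-Cre libraries under PBS, Rnaseh2c is lower and Aqr higher after PHZ in Mx1-Cre libraries without overlap, and Chek1 hardly moves.

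The first question is whether the mutant changed these genes. By the average of both treatments, Rnaseh2a rose in P95H CFU-E, and Atr and Aqr fell. All 3 differences were small, at 1.18-fold for Rnaseh2a and 0.864-fold and 0.902-fold of the Mx1-Cre level for Atr and Aqr. 1 of 9 genes rose, against 2.66% of all 10890 genes, and 2 of 9 fell, against 7.88% of all genes. The 9 genes were chosen with earlier results of these data known, so these counts are not independent of those results. They were not tested against the shares. Under PBS alone none of the 9 passed (1.48% of all genes did, in either direction), with 4 of the 9 at an unadjusted limma p under 0.05. After PHZ alone only Rnaseh2a passed, where 1.1% of all genes rose and 4.37% fell. On simulated data the fit found 30% of log2 changes of 0.25 under PBS, 21% after PHZ and 59% by the average. A gene that did not pass is therefore not shown to be unchanged. The median log2 fold change of the 9 genes was -0.04 by the average, beside -0.04 over all genes.

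Rnaseh2a, the catalytic subunit of RNase H2, gave 141, 122, 126, 124 and 144 in P95H libraries after PHZ, against 104, 97.2, 108, 111 and 128 in Mx1-Cre libraries after PHZ. Under PBS it gave 142, 131, 142, 163 and 151 in P95H libraries, against 120, 109, 125, 132 and 136 in Mx1-Cre libraries. The P95H values were thus mostly the higher under both treatments, and the groups overlapped in both. The log2 fold change of Rnaseh2a was 0.26 after PHZ (SE 0.0754, limma adjusted p = 0.0470), 0.23 under PBS (SE 0.0754, adjusted p = 0.155) and 0.24 by the average (SE 0.0533, adjusted p = 0.00513). The call by the average was kept in all 32 alternative analyses, at log2 fold changes of 0.17 to 0.29. The call after PHZ was lost in 14 of 33, with adjusted p up to 0.109 and log2 fold changes of 0.22 to 0.33; 11 of these left out 1 library, namely Mx1-Cre PHZ replicates 1, 2, 3 or 4, P95H PHZ replicates 1, 3 or 5, Mx1-Cre PBS replicates 1 or 3, or P95H PBS replicates 3 or 5.

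Rnaseh2a was also the gene of the 9 whose level followed the granulocyte and monocyte markers most closely. Across the 20 libraries, its log2 value and the log2 of their summed signal had a Pearson r of 0.78, and of 0.84 on deviations from the group means; the points share the per-library scaling, and r is given as a description. Another limma fit took as a covariate the mean log2 value of the 17 markers kept by the filter, and not the summed signal. With this covariate the P95H against Mx1-Cre log2 fold change of Rnaseh2a was 0.25 after PHZ (adjusted p = 0.00469), 0.17 by the average (adjusted p = 0.00493) and 0.09 under PBS (adjusted p = 0.551). The value under PBS thus moved by more than 1.5 times, and that after PHZ hardly. All 17 markers tested had a positive log2 fold change in P95H under PBS, none of them past the threshold, with a median of 0.83; after PHZ that median was 0.03, with 11 positive and 6 negative.

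**Figure D2:**
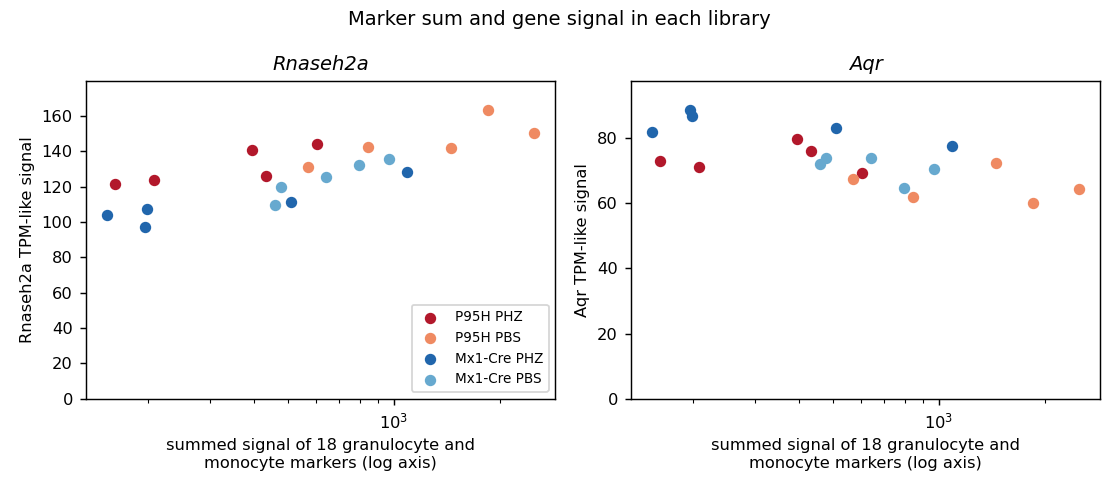
Rnaseh2a (left) and Aqr (right) signal of each library, on the TPM-like scale, against the summed signal of 18 granulocyte and monocyte markers on a log axis, coloured by group. Rnaseh2a tends to be higher in libraries with more marker signal within groups as well as between them (r = 0.84 on deviations from the group means), and Aqr lower, less clearly so within groups (r = -0.32 on the same measure).

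Exons of Rnaseh2a and of Prdx2, an abundant antioxidant gene of red cells, overlap on opposite strands, and the sources used here do not say whether counting used strand. The overlap covers 177 of the 3509 exonic bases of Rnaseh2a (5.04%), and Prdx2 averaged 1294 on the TPM-like scale, so its reads could reach Rnaseh2a if strand was ignored. Prdx2 itself differed between P95H and Mx1-Cre by a log2 fold change of 0.01 on average (limma adjusted p = 0.913), and of -0.04 after PHZ (adjusted p = 0.806).

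Atr, the checkpoint kinase, gave 26.1, 28.8, 29.1, 34.4 and 25.4 in P95H libraries after PHZ, against 32.2, 36.6, 33.9, 30.1 and 35.0 in Mx1-Cre libraries after PHZ. Under PBS it gave 28.7, 24.5, 25.9, 28.7 and 27.6 in P95H libraries, against 32.0, 31.9, 28.8, 30.6 and 33.0 in Mx1-Cre libraries. All 5 P95H libraries under PBS lay below all 5 Mx1-Cre libraries, while after PHZ replicate 4 of P95H lay among the controls. The log2 fold change of Atr was -0.21 by the average (SE 0.0512, limma adjusted p = 0.0106), -0.22 after PHZ (SE 0.0724, adjusted p = 0.0754) and -0.20 under PBS (SE 0.0724, adjusted p = 0.193). Without P95H PHZ replicate 4 the value for Atr after PHZ was -0.28 and passed (adjusted p = 0.0179). The call for Atr by the average was lost under median-of-ratios scaling (-0.16, adjusted p = 0.0630) and under quantile normalization (-0.15, adjusted p = 0.0904), and it was kept with the marker covariate (-0.21, adjusted p = 0.0213).

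Aqr, the intron-binding helicase, gave 79.9, 72.9, 76.2, 71.1 and 69.4 in P95H libraries after PHZ, against 82.0, 88.7, 86.9, 83.1 and 77.7 in Mx1-Cre libraries after PHZ. Under PBS it gave 61.9, 67.5, 72.3, 60.2 and 64.5 in P95H libraries, against 73.8, 72.1, 74.0, 64.8 and 70.4 in Mx1-Cre libraries. After PHZ only replicate 1 of P95H lay above the lowest Mx1-Cre library, and under PBS the groups overlapped more. The log2 fold change of Aqr was -0.15 by the average (SE 0.0398, limma adjusted p = 0.0186), -0.18 after PHZ (SE 0.0563, adjusted p = 0.0654) and -0.12 under PBS (SE 0.0563, adjusted p = 0.336). The call for Aqr by the average was lost once the authors' scaling factor was removed (adjusted p = 0.191), under median-of-ratios scaling (0.142 as adjusted p), under quantile normalization (adjusted p = 0.0908), with the marker covariate (adjusted p = 0.0558) and without P95H PBS replicates 4 and 5 (adjusted p = 0.0731). Aqr had a Pearson r with the granulocyte and monocyte markers of -0.66 over the 20 libraries and -0.32 on deviations from the group means.

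Topbp1, Atrip and Chek1, the other ATR checkpoint genes of the 9, did not pass in any P95H against Mx1-Cre comparison. Topbp1 gave 115, 101, 124, 104 and 125 in P95H libraries after PHZ, against 134, 121, 119, 122 and 110 in Mx1-Cre libraries after PHZ. Under PBS Topbp1 gave 113, 119, 119, 113 and 109 in P95H libraries, against 130, 127, 131, 120 and 120 in Mx1-Cre libraries. The PBS groups of Topbp1 did not overlap, the PHZ groups did, and the log2 fold change by the average was -0.11 (95% interval -0.20 to -0.02, limma adjusted p = 0.104). Atr and Topbp1 were the only 2 of the 9 whose genotype groups did not overlap under PBS (3.67% of all genes), and none of the 9 was without overlap after PHZ (6.95% of all genes).

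Chek1, the kinase that ATR activates, averaged 55.8 ± 5.08 in P95H and 57.2 ± 1.09 in Mx1-Cre libraries after PHZ, and 55.9 ± 1.22 in P95H and 57.3 ± 1.22 in Mx1-Cre libraries under PBS (SD, n = 5 each). Its log2 fold change by the average was -0.04, with a 95% interval of -0.11 to 0.04. The 5 P95H libraries after PHZ spread wider than the others, at 56.5, 49.2, 54.9, 55.0 and 63.4. Atrip, the partner that brings ATR to single-stranded DNA, averaged 13.9 ± 0.836 in P95H and 14.8 ± 1.19 in Mx1-Cre libraries after PHZ, and 15.1 ± 1.21 in P95H and 15.4 ± 0.401 in Mx1-Cre libraries under PBS. The 95% interval of its log2 fold change by the average was -0.15 to 0.04. The whole of the exonic sequence of Trex1, a DNA exonuclease gene with a mean of 8.92, lies within Atrip on the same strand (1147 of 7152 exonic bases), so the split of reads between them is uncertain. Trex1 had a log2 fold change of -0.02 between genotypes by the average (limma adjusted p = 0.937), and after PHZ it fell in P95H (-0.42, adjusted p = 0.0258) and in Mx1-Cre (-0.50, adjusted p = 0.00995).

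Of the hybrid-cutting enzymes other than Rnaseh2a, none passed between genotypes. Rnaseh2b averaged 113 ± 5.05 in P95H and 113 ± 6.19 in Mx1-Cre libraries after PHZ, and 118 ± 7.74 in P95H and 117 ± 6.55 in Mx1-Cre libraries under PBS. Rnaseh2c averaged 140 ± 11.7 in P95H and 147 ± 7.12 in Mx1-Cre libraries after PHZ, and 184 ± 18.1 in P95H and 184 ± 19.0 in Mx1-Cre libraries under PBS. The 95% intervals of their log2 fold changes by the average were -0.07 to 0.09 for Rnaseh2b and -0.15 to 0.07 for Rnaseh2c. Rnaseh1 gave 24.8, 26.5, 20.4, 23.7 and 17.9 in P95H libraries after PHZ, against 23.1, 24.3, 25.4, 24.9 and 27.8 in Mx1-Cre libraries after PHZ. Under PBS Rnaseh1 gave 29.6, 23.2, 25.6, 27.9 and 24.9 in P95H libraries, against 24.0, 22.9, 23.1, 23.4 and 24.2 in Mx1-Cre libraries. The difference of Rnaseh1 had opposite signs, at a log2 fold change of -0.15 after PHZ (limma adjusted p = 0.301) and 0.15 under PBS (adjusted p = 0.443).

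**Figure D3:**
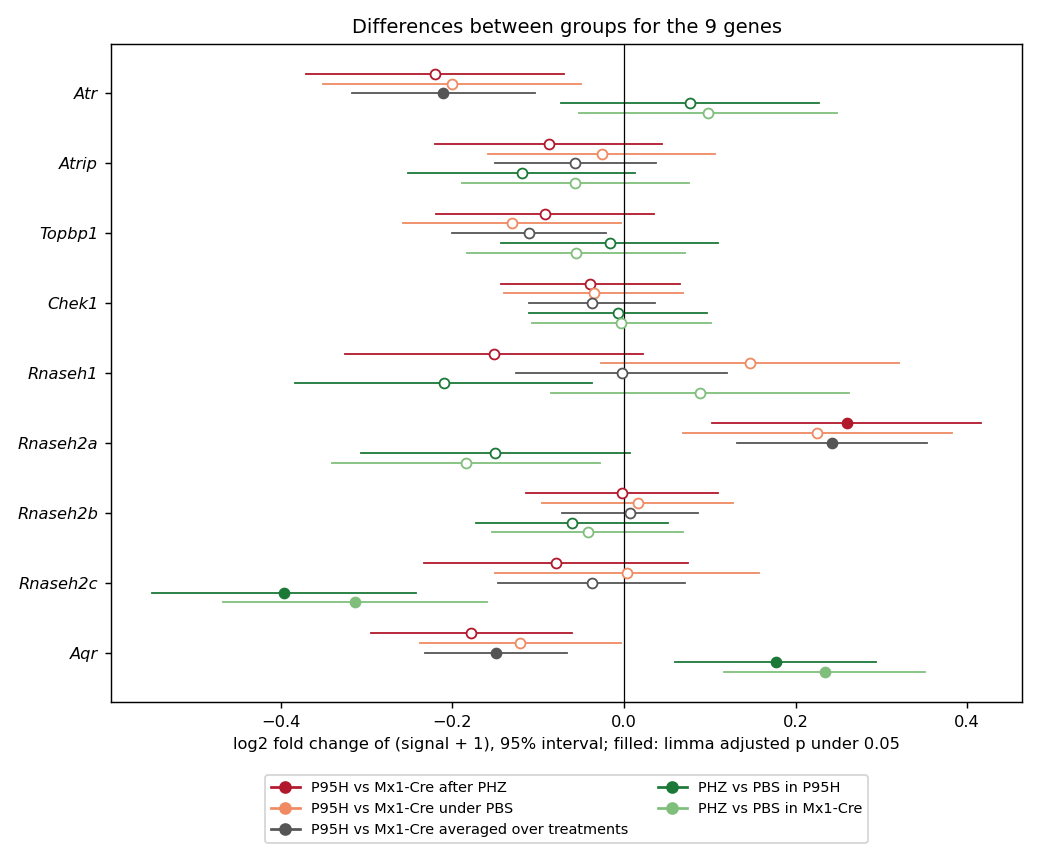
Log2 fold change of (signal + 1) for each gene in 5 comparisons, with 95% intervals from the limma fit and filled points where the adjusted p was under 0.05. Rnaseh2a lies above 0 and Atr and Aqr below 0 between genotypes, while Rnaseh2c lies below 0 and Aqr above 0 between treatments; the interval of Chek1 spans 0 in all 5.

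The second question is what PHZ did to these genes in each genotype. In both genotypes Rnaseh2c fell and Aqr rose after PHZ, and the other 7 genes did not pass. In P95H mice 1 of 9 rose (12.6% of all genes did) and 1 of 9 fell (17.7% of all genes did). In Mx1-Cre mice 1 of 9 rose (17.0% of all genes) and 1 of 9 fell (14.9% of all genes). These shares are near those of all genes. The CFU-E markers moved with treatment as well: 3 of 10 rose and 4 fell in P95H, and 3 rose and 2 fell in Mx1-Cre. Kit, the receptor of stem cell factor, fell by 0.77 in P95H and 0.80 in Mx1-Cre on the log2 scale. Tfrc, the transferrin receptor gene, rose by 0.75 in P95H and 0.89 in Mx1-Cre, and Rhag, a red cell membrane gene, by 0.45 and 0.29 in the same order. The part of these markers in the values of Rnaseh2c and Aqr was not tested.

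Rnaseh2c, an accessory subunit of RNase H2, gave 157, 132, 137, 145 and 127 in P95H libraries after PHZ, against 204, 156, 188, 193 and 180 in P95H libraries under PBS. In Mx1-Cre libraries it gave 148, 145, 144, 141 and 159 after PHZ, against 182, 168, 180, 216 and 174 under PBS. The Mx1-Cre groups did not overlap, and the P95H groups touched at a single library. The log2 fold change of Rnaseh2c was -0.40 in P95H (SE 0.0740, limma adjusted p = 0.000367) and -0.31 in Mx1-Cre (SE 0.0740, adjusted p = 0.00291). With the marker covariate the values for Rnaseh2c were -0.30 in P95H (adjusted p = 0.0689) and -0.26 in Mx1-Cre (adjusted p = 0.0268); every other alternative kept both calls. Pearson r of Rnaseh2c with those markers was 0.65 over the 20 libraries and 0.25 on deviations from the group means. All 17 tested granulocyte and monocyte markers fell after PHZ in P95H (median log2 fold change -1.85), and 1 of 17 in Mx1-Cre (median -0.91). Kat5, an acetyltransferase gene, overlaps 426 of the 1715 exonic bases of Rnaseh2c (24.8%) on the opposite strand; Kat5 averaged 41.3 and had log2 fold changes of -0.07 in P95H (adjusted p = 0.297) and -0.02 in Mx1-Cre (adjusted p = 0.822).

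Aqr after PHZ, with the values given above, was higher than under PBS in all 5 against all 5 Mx1-Cre libraries, and in P95H the groups overlapped. The log2 fold change of Aqr was 0.18 in P95H (SE 0.0563, limma adjusted p = 0.0209) and 0.23 in Mx1-Cre (SE 0.0563, adjusted p = 0.00338). The Mx1-Cre call for Aqr was kept in all 33 alternatives (0.17 to 0.28). The P95H call was lost in 7, among them the marker covariate (0.10, adjusted p = 0.490), the fit restricted to the compared groups (adjusted p = 0.0528) and the fits without P95H PBS replicates 4 and 5 (0.13, adjusted p = 0.156), without P95H PBS replicate 1 (adjusted p = 0.0519) or 4 (adjusted p = 0.0631), or without P95H PHZ replicate 1 (adjusted p = 0.0607) or 3 (adjusted p = 0.0518). Aqr and Rnaseh2c were the only 2 of the 9 whose treatment groups did not overlap in Mx1-Cre (22.4% of all genes), and none of the 9 was without overlap in P95H (17.6% of all genes).

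Among the genes that did not pass after PHZ, Rnaseh1 had a log2 fold change of -0.21 in P95H (SE 0.0836, limma adjusted p = 0.0613) and 0.09 in Mx1-Cre (SE 0.0836, adjusted p = 0.452). The P95H value of Rnaseh1 passed when P95H PHZ replicate 1 (adjusted p = 0.0428), P95H PHZ replicate 2 (adjusted p = 0.0203) or P95H PBS replicate 2 (adjusted p = 0.0338) was left out. Rnaseh2a had -0.15 in P95H (adjusted p = 0.139) and -0.18 in Mx1-Cre (adjusted p = 0.0670); with the marker covariate these were 0.12 (adjusted p = 0.315) and -0.04 (adjusted p = 0.649). Prdx2, which overlaps Rnaseh2a, had -0.22 in P95H (adjusted p = 0.0253) and -0.11 in Mx1-Cre (adjusted p = 0.235). Atr had 0.08 and 0.10 in the same order of genotypes, Atrip -0.12 and -0.06, Topbp1 -0.02 and -0.06, and Rnaseh2b -0.06 and -0.04. Chek1 had -0.01 in P95H, with a 95% interval of -0.11 to 0.10, and -0.00 in Mx1-Cre, with an interval of -0.11 to 0.10.

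Whether the PHZ effect itself differed between P95H and Mx1-Cre was tested as the difference of the 2 effects. By limma, none of the 9 and none of the 10890 genes passed (0.0%), and 577 genes had an unadjusted p under 0.05. No other setting called any gene except the fit without a filter on low values, which called 1. On simulated data this test found 4% of log2 changes of 0.25 and 46% of changes of 0.5. The lack of calls therefore does not show that the effects were equal. Rnaseh1 came nearest, with a difference of -0.30 on the log2 scale (SE 0.118, limma adjusted p = 0.798). The 95% intervals were widest for Rnaseh1 (-0.54 to -0.05) and narrowest for Chek1 (-0.15 to 0.14).

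Because the partners of a complex can be compared within a library, where no scaling factor enters, 3 ratios were also tested, a choice made after the values were seen. Since the Rnaseh2a and Rnaseh2c differences and the level Rnaseh2b values were already known, the ratios to Rnaseh2b restate them and are not independent evidence. The ratio of Rnaseh2a to Rnaseh2b averaged 1.16 ± 0.0678 in P95H and 0.967 ± 0.0540 in Mx1-Cre libraries after PHZ (SD, n = 5 each), with all 5 P95H libraries above all 5 controls. Its log2 difference was 0.26 (two-sided exact permutation test over 252 arrangements, p = 0.00794, the smallest they can give; adjusted over 12 tests, p = 0.0317). Under PBS this ratio averaged 1.24 ± 0.130 in P95H and 1.07 ± 0.103 in Mx1-Cre libraries, a log2 difference of 0.21 that did not pass (exact permutation p = 0.0556, adjusted p = 0.133).

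The ratio of Rnaseh2c to Rnaseh2b averaged 1.24 ± 0.110 after PHZ and 1.56 ± 0.120 under PBS in P95H libraries, and 1.30 ± 0.0351 after PHZ and 1.58 ± 0.171 under PBS in Mx1-Cre libraries. The log2 differences were -0.34 in P95H and -0.27 in Mx1-Cre, each with an adjusted exact permutation p = 0.0317. The ratio of Atr to Atrip averaged 2.09 ± 0.377 in P95H and 2.28 ± 0.289 in Mx1-Cre libraries after PHZ, and 1.80 ± 0.235 in P95H and 2.03 ± 0.108 in Mx1-Cre libraries under PBS. None of its 4 comparisons passed after adjustment; the nearest was PHZ against PBS in Mx1-Cre, at 0.16 (exact permutation p = 0.0397, adjusted p = 0.119). Without Mx1-Cre PHZ replicate 2 that value was 0.09 (exact permutation p = 0.0794).

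**Figure D4:**
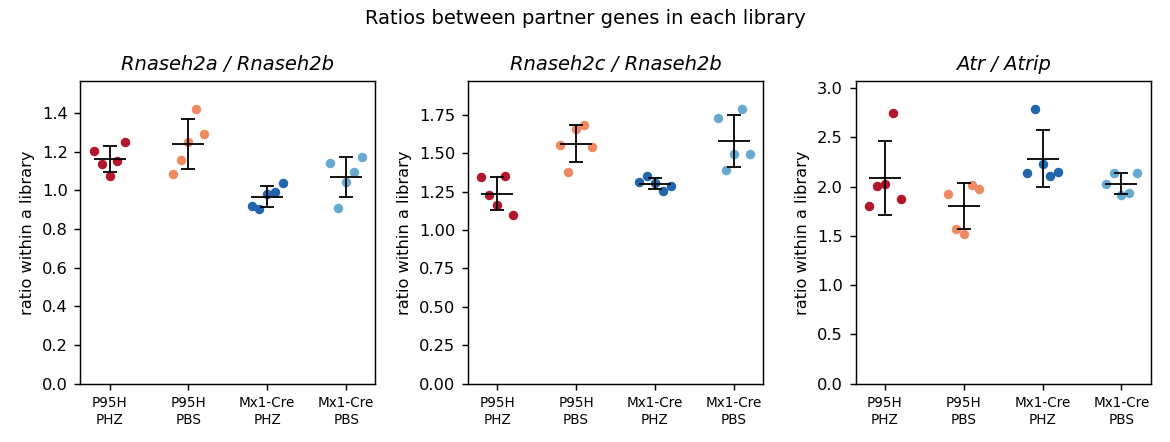
Ratio of 2 partner genes within each library, with 1 point per library and the mean ± SD of 5 libraries in black. The Rnaseh2a to Rnaseh2b ratio of P95H libraries after PHZ lies above that of Mx1-Cre libraries after PHZ without overlap, and the Rnaseh2c to Rnaseh2b ratio is lower after PHZ in both genotypes.

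The 9 genes did not move as a unit across libraries. Over the 36 pairs, Pearson r of log2 values across the 20 libraries ranged from -0.80 to 0.70, with a median of 0.06, and on deviations from the group means from -0.75 to 0.69, with a median of 0.07. The highest was Chek1 with Topbp1 (0.70, and 0.69 on deviations) and the lowest Aqr with Rnaseh2a (-0.80, and -0.50 on deviations). Chek1 and Rnaseh1 ran opposite to each other within groups, at -0.75. Chek1 and Topbp1 followed the mean of 30 S-phase and replication genes, with r of 0.78 and 0.63 over the libraries and 0.79 and 0.67 on deviations. The 3 RNase H2 subunits were only loosely tied to each other, at 0.41 for Rnaseh2a with Rnaseh2b, 0.45 for Rnaseh2a with Rnaseh2c and 0.48 for Rnaseh2b with Rnaseh2c. These values share depth and scaling per library and are descriptions.

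By likeness of pattern over the 20 libraries, among genes with a mean of at least 5, Rnaseh2c was closest to the ribosomal protein genes Rps15 (r = 0.96), Rps23 (0.95) and Rps9 (0.95), and on deviations from the group means to the same 3 (0.91, 0.85 and 0.86). Topbp1 was closest to Rbl1, a pocket protein gene of the retinoblastoma family (0.93), to Dtl, which encodes a substrate receptor of a replication-linked ubiquitin ligase (0.90), and to Zfp592 (0.89). Aqr was closest to Gpam (0.96), an acyltransferase of lipid synthesis, to Dis3 (0.93), a nuclease of the RNA exosome, and to Jade3 (0.93). Rnaseh2a was closest to Hnrnpa2b1, an RNA-binding protein gene (0.90), and on deviations to Ndufv1 (0.91), Akr1a1 (0.90) and Hp (0.87), the last being haptoglobin, which binds free haemoglobin. Entpd6 (0.85) and Tusc3 (0.84) were among the genes most like Atr. Chek1 was closest to Nxpe2 (0.86), Sesn1 (0.85) and Mtmr3 (0.84), Rnaseh1 to Fdx1l (0.87), Timm10 (0.83) and Alg1 (0.83), Rnaseh2b to Birc5 (0.78), Tsg101 (0.77) and Cmpk1 (0.75), and Atrip to Hist1h2ak (0.73), Ciao1 (0.73) and Pdcl3 (0.71).

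Around the 9 genes, 30 other R-loop and RNA:DNA hybrid factors were all measured. Between genotypes by the average, 1 of 30 rose (3.33%, beside 2.66% of all genes) and 2 fell (6.67%, beside 7.88%). The helicase gene Rtel1 was higher in P95H (log2 fold change 0.19, SE 0.0410, limma adjusted p = 0.00440), and the helicase gene Ddx41 (-0.13, adjusted p = 0.0188) and the repair nuclease gene Ercc5 (-0.11, adjusted p = 0.0474) were lower. After PHZ alone, Rtel1 rose (0.21, adjusted p = 0.0417) and Ddx41 fell (-0.17, adjusted p = 0.0423) in P95H against Mx1-Cre (3.33% each, beside 1.1% and 4.37% of all genes). Under PBS none of the 30 passed (beside 1.48% of all genes, in either direction). Their median log2 fold change by the average was -0.04, as over all genes. The calls of this list were not examined under the other scalings. After PHZ against PBS, 1 of 30 rose and 4 fell in P95H (3.33% and 13.3%, beside 12.6% and 17.7% of all genes). In Mx1-Cre 6 of 30 rose and 0 fell (20% and 0.0%, beside 17.0% and 14.9% of all genes). Ddx21, a nucleolar helicase gene, rose in both, by 0.37 in P95H and 0.57 in Mx1-Cre (adjusted p = 0.00158 and 2.6e-05). Adar (-0.39), the RNA-editing enzyme gene, Thoc7 (-0.23), of the mRNA export complex, and Top3b (-0.15), a topoisomerase gene, fell in P95H, and Samhd1 (0.30), Xrn2 (0.17), an exoribonuclease gene of transcription termination, and Thoc3 (0.20) rose in Mx1-Cre. These names follow the smallest p in each genotype, and no gene of the list passed the test of a difference between the PHZ effects. In the other genotype Samhd1 averaged 73.0 after PHZ and 65.7 under PBS in P95H, and Adar 28.9 after PHZ and 32.6 under PBS in Mx1-Cre.

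Of 26 other ATR pathway partners and effectors, 0 rose and 1 fell between genotypes by the average (0.0% and 3.85%, beside 2.66% and 7.88% of all genes). The gene that fell was Rad50, of the break-sensing MRN complex (log2 fold change -0.14, SE 0.0385, limma adjusted p = 0.0182). None passed under PBS or after PHZ alone (beside 1.48% and 5.47% of all genes, in either direction). The calls of this list were not examined under the other scalings. After PHZ against PBS, 4 of 26 rose and 5 fell in P95H (15.4% and 19.2%, beside 12.6% and 17.7% of all genes), and 1 of 26 rose and 5 fell in Mx1-Cre (3.85% and 19.2%, beside 17.0% and 14.9%). Cdc25a, the phosphatase gene whose product CHK1 targets for destruction, rose in both, by 0.29 in P95H (adjusted p = 0.00768) and 0.40 in Mx1-Cre (adjusted p = 0.000533). Rhno1 (-0.27), whose product helps activate ATR, Smarcal1 (-0.19), a fork-remodelling gene, and Rfc2 (-0.21), a clamp-loader gene, fell in P95H. Zranb3 (-0.38), Timeless (-0.30) and Rpa3 (-0.26), of fork remodelling, fork protection and single-strand binding, fell in Mx1-Cre. These names too follow the smallest p in each genotype, and no difference between the PHZ effects passed. In P95H, Timeless averaged 76.3 after PHZ and 88.1 under PBS and Rpa3 143 after PHZ and 169 under PBS, and in Mx1-Cre Rfc2 averaged 142 after PHZ and 162 under PBS.

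In the parallel ATM and DNA-PK branch, which responds to double-strand breaks, 0 of 12 genes rose and 4 fell between genotypes by the average (33.3% of the list, beside 7.88% of all genes; the list was not chosen independently of earlier results of these data). These were Xrcc6 (log2 fold change -0.17, limma adjusted p = 0.00186) and Xrcc5 (-0.12, adjusted p = 0.00861), which encode the Ku proteins, Rnf8 (-0.18, adjusted p = 0.00510), a ubiquitin ligase gene, and Chek2 (-0.15, adjusted p = 0.0350), the kinase downstream of ATM. After PHZ alone Xrcc6 (-0.23), Rnf8 (-0.25) and Xrcc5 (-0.16) fell in P95H (25.0% of the list, beside 4.37% of all genes). Under PBS none passed (beside 1.48% of all genes, in either direction). The median log2 fold change of the 12 genes was -0.06 by the average, beside -0.04 over all genes. After PHZ alone that median was 0.01, beside -0.05 over all genes, with 7 of the 12 positive and 5 negative. These calls were not examined under the other scalings. After PHZ against PBS 1 rose and 1 fell in P95H (8.33% each, beside 12.6% and 17.7% of all genes), and 1 rose and 4 fell in Mx1-Cre (8.33% and 33.3%, beside 17.0% and 14.9%), Xrcc5 rising in both (0.15 and 0.21) and Rnf8 falling in both (-0.33 and -0.19). None of the 30 S-phase and replication genes passed between genotypes under PBS, after PHZ or by the average (beside 1.48%, 5.47% and 10.5% of all genes, in either direction). Their median log2 fold change by the average was -0.03, beside -0.04 over all genes. After PHZ against PBS 2 of 30 rose and 6 fell in P95H (6.67% and 20%, beside 12.6% and 17.7% of all genes), with Pola1 at 0.20 and Mcm7 at -0.21 among them. In Mx1-Cre 3 of 30 rose and 4 fell (10.0% and 13.3%, beside 17.0% and 14.9% of all genes), with Ccne1 at 0.36 and Gins2 at -0.18 among them.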

How the data were processed

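RNA sequencing of sorted CFU-E was used, with 20 libraries, each taken as 1 mouse, in 4 groups of 5. The authors deposited 1 table of normalised signal; dividing each library by its own factor (0.940 to 1.10) turned all non-zero values into whole steps of 0.01 (tolerance 0.01 of a step), the form of rounded TPM that were then rescaled. The divided values sum to 979638 to 992743 per library. The sources used here do not say how the factors were made. The submitters' processing notes list TopHat2 2.0.8b, TopHat, RSEM 1.2.4 and Bowtie as tools, and GRCm38, mm10, GRCh37 and hg19 as builds, without saying what each was used for. Reads per gene are not in these values, so no counting interval is given and their number limits the precision in an unknown way.

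Symbols and positions came from GENCODE vM21 (GRCm38), which gave a symbol to 35986 of 37748 entries. Values were analysed as log2(value + 1), which understates changes of low genes, and 10890 entries were kept, those with 5 or more libraries at 1 or more. A single limma model (version 3.58.1, R 4.3.3) held a mean for each group and used all 20 libraries, with trend and robust moderation, for genotype (under PBS, after PHZ and averaged), for PHZ against PBS in either genotype, and the difference of the PHZ effects; p-values were adjusted by Benjamini-Hochberg over all kept genes, and the fit was tested on simulated data. Ratios within a library were compared by exact permutation. Pathway and marker lists name, per comparison, up to 4 called genes with the smallest p. Each of the 9 genes is set beside the 3 genes most like it, except that an item of this kind is not reported here for Atr. The members and lists were chosen with earlier results of these data known.

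Alternatives were 3 other scalings, 2 other pseudocounts (0.1 and 5), 2 other filters, no trend or robust moderation, library weights, a replicate block, a granulocyte and monocyte marker covariate (the mean of 17 markers), the compared groups alone, and fits without each library in turn or without P95H PBS replicates 4 and 5.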

Additional observations from a re-analysis of the deposited data

Results flagged for a closer look

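Of 48 sets of 5 libraries examined, 3 held a library far from its group by Dixon's criterion, where chance flags about 1 in 20. Rnaseh2b was 131.641 in P95H PBS replicate 1, against 113 to 117 in the other 4 libraries of that group. The Atr to Atrip ratio was 2.7447 in P95H PHZ replicate 4, against 1.80 to 2.03 in the other 4. The same ratio was 2.79265 in Mx1-Cre PHZ replicate 2, against 2.10 to 2.23 in the other 4. Without P95H PHZ replicate 4, the log2 difference of the Atr to Atrip ratio between P95H and Mx1-Cre after PHZ was -0.24 (exact permutation p = 0.0159, not adjusted), against -0.13 with it (exact permutation p = 0.357). Without Mx1-Cre PHZ replicate 2 it was -0.06 (exact permutation p = 0.714). Without P95H PBS replicate 1, the log2 difference of the Rnaseh2a to Rnaseh2b ratio between P95H and Mx1-Cre under PBS was 0.26 (exact permutation p = 0.0238, not adjusted), against 0.21 with it (exact permutation p = 0.0556).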

How the results depend on the processing

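No direction was assigned to a difference smaller than its standard error unless it was called. Genes called in P95H against Mx1-Cre under PBS numbered 161, against 538 with library weights, 97 without P95H PBS replicates 4 and 5, 78 from the compared groups alone, and 90 to 180 leaving out 1 library; the lowest were without P95H PBS replicate 5 (90) and Mx1-Cre PBS replicates 1 (92) and 3 (93). After PHZ they numbered 596 (120 higher, 476 lower), against 278 with the authors' factor divided out (133 and 145), 319 under median-of-ratios scaling (168 and 151), 292 under quantile normalization (129 and 163), a split of 343 and 413 with no filter and of 44 and 470 with the filter at 5, 345 from the compared groups alone, and 319 to 697 leaving out 1 library, lowest without Mx1-Cre PHZ replicate 3 (319) and P95H PHZ replicate 3 (331). By the average they numbered 1148 (290 and 858), against 1846 with library weights, and split 334 and 448, 476 and 379, and 394 and 406 under the 3 scalings in the order above, 750 and 805 with no filter, and 133 and 774 with the filter at 5. PHZ against PBS in P95H called 3294 (1371 and 1923), against 1007 with the marker covariate, 2089 without P95H PBS replicates 4 and 5, and 2584 and 1110 with the factor divided out, which in Mx1-Cre gave 2237 and 1216 (1856 and 1618 as reported). Under PBS the split of 39 and 122 was 53 and 69 under median-of-ratios scaling and 52 and 80 under quantile normalization. The difference of PHZ effects called 1 gene with no filter and 0 otherwise. Dividing out the factor moved the median log2 fold change of all genes by 0.095 for PHZ against PBS in P95H, where Aqr was called at 0.18. Median-of-ratios scaling moved that median by 0.063 for P95H against Mx1-Cre after PHZ. No scaling moved it by over 0.1.

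Of the 9 genes, P95H against Mx1-Cre under PBS called 1 (Rnaseh2a) with library weights or the replicate block, against 0. After PHZ it called 0 with no filter, with no trend or robust moderation or from the compared groups alone, 2 with library weights or the replicate block (Aqr joining), and 0 to 2 leaving out 1 library, against 1. By the average it called 1 under median-of-ratios scaling and 1 under quantile normalization, against 3. PHZ against PBS in P95H called 0 with the marker covariate, 1 without P95H PBS replicates 4 and 5, 1 from the compared groups alone, and 1 to 3 leaving out 1 library, against 2. Directions turned for Chek1 by the average (0.014 under median-of-ratios scaling, 0.0091 under quantile normalization), Atrip by the average (0.011 under quantile normalization), Rnaseh2b after PHZ in P95H (0.044 with the factor divided out, 0.0022 with the covariate) and Rnaseh2a after PHZ in P95H (0.12 with the covariate), none of them called in either form. Where values or construction do not show it, the cause was not tested. Replicate numbers were not treated as pairs in the main fit. Across 30 same-numbered pairs of libraries from different groups, the correlation of deviations had a median of 0.03, and 13 exceeded 0.1. Across 120 other-numbered pairs the median was -0.02, and 34 exceeded 0.1. Whether the numbers mark pairs cannot be told from these values. The replicate block called 189, 617, 1241, 3356 and 3579 genes in the 5 comparisons, in the order under PBS, after PHZ, average, PHZ in P95H and PHZ in Mx1-Cre, and 3 of the 9 genes in each of the last 2 (Rnaseh2a joining). Depth per gene is not known, and how far it or the spread between libraries limits these comparisons was not tested.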
